A study of Mus musculus with 8 samples.

Results

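The genes described here encode the proteins of the mitochondrial ribosome. They were taken as the protein-coding genes of the count table whose GENCODE M21 symbol begins with Mrpl (large subunit) or Mrps (small subunit) followed by a digit. The rule found 77 of the 38293 gene identifiers in the table, and 76 of them were among the 13336 genes with enough counts to be tested. Mrpl33 carries the same pattern, but its GENCODE M21 identifier is not in the count table, so it was not analysed. In addition, 4 pseudogenes with the pattern were left out. RNA was sequenced from the left ventricles of 8 male C57BL/6 mice of 8 weeks of age that received no treatment, with 1 library per heart. The 4 wild-type (WT) hearts are replicates 1 to 4. The other 4 hearts, replicates 5 to 8, came from mice labelled as knockouts (KO) of Nbdy, also called mORF4, a short protein that associates with the machinery removing mRNA caps. The labels do not describe the knockout allele, or whether controls were littermates.

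Mitochondria keep their own ribosome, which translates the few mRNAs of the mitochondrial genome into core subunits of the respiratory chain and of ATP synthase. Its ribosomal RNAs are made in the organelle, but all of its proteins are encoded in the nucleus, made in the cytosol and imported. Some descend from bacterial ribosomal proteins and others exist only in mitochondria. The heart depends on this supply, and mutations in several of these genes, among them MRPL3, MRPL44 and MRPS22, cause cardiomyopathy in people.

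Total counts lay between 11101901 and 14699949 per library, and a tested mitochondrial ribosomal protein gene held between 127 and 3663 counts in a library. The cardiomyocyte marker Myh6, the adult myosin heavy chain, stood at 20495 CPM (library-scaled counts, by TMM) in WT replicate 1. Of the atrial markers, the myosin light chain Myl7 held at most 28 counts in any heart and Myl4 40 to 116. Nppa, a natriuretic peptide that ventricles can also make, averaged 400.2 CPM over the WT hearts and 601.2 CPM over the KO hearts (log2 difference 0.59 ± 0.19, adjusted p = 0.711), and its part in the values of the members was not tested. Albumin (Alb), a liver marker, held 0 counts in all 8 hearts. The WT hearts held 241, 208, 246 and 248 counts of Nbdy, the KO hearts 137, 135, 133 and 115, so the transcript was lower in every KO heart but still present (log2 fold change -0.97 ± 0.11 SE, adjusted p = 0.0060 in edgeR's quasi-likelihood test; 0.056 without KO replicate 6). Libraries stood apart within the WT group. The 8 tested mitochondrially encoded mRNAs took 27.7% of counts in WT replicate 1, against 17.1% to 18.9% in the other WT hearts and 21.6% to 25.5% in KO. WT replicates 1 and 2 were also the lowest and the highest heart for many members.

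The promoters of these genes are shown first, because they and the gene neighbourhood are shared features that the symbol rule did not use. RefSeq (GRCm38.p6) gave a window from 250 bases before to 50 bases after the transcript start for 68 of the 77 genes. These genes had 74 windows in all, and a gene was counted with a motif if any of its windows held it. Each window is 300 bases long and was searched on both strands for 3 motifs of factors known to act at nuclear genes for mitochondrial proteins. These were CGCATGCG for NRF1, CCGGAAGT for ETS-family factors such as GABPA, and AAGATGGC for YY1. The shorter NRF1 core TGCGCA, which can overlap the NRF1 motif, was counted apart. The 3 windows printed were picked to show each motif: Mrpl32 (chr13:14612988-14613287, minus strand), Mrps27 (chr13:99344536-99344835, plus strand) and Mrpl3 (chr9:105053018-105053317, plus strand). Sequences run 5′ to 3′ on the gene's strand, and capitals mark every motif match on either strand.
Mrpl32: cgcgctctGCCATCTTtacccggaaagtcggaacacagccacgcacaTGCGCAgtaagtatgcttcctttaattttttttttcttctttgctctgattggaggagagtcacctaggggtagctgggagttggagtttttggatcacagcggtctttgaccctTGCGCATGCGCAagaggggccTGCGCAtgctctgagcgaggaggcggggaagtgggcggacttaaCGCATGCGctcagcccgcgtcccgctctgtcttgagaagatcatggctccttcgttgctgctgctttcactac
Mrps27: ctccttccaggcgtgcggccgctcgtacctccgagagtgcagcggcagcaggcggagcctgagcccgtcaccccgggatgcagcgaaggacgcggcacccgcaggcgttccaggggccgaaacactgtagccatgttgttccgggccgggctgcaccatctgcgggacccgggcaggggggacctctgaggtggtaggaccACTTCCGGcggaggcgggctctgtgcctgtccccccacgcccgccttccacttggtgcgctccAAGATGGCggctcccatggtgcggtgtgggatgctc
Mrpl3: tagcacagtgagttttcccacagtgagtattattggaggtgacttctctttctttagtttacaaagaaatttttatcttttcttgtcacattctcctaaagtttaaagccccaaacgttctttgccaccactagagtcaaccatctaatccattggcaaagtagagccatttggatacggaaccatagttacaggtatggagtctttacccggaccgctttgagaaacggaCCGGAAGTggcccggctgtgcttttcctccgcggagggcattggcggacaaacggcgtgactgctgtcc

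In the Mrpl32 window the NRF1 motif begins at positions -86 and -23 from the transcript start, with 4 matches to the TGCGCA core and a YY1 motif at -242 on the opposite strand. The Mrps27 window holds an ETS motif at -49, on the opposite strand, and a YY1 motif at 15, inside the transcript. Mrpl3 has an ETS motif at -19. Mrpl32 and Mrps27 were the 2 members with more than 1 of the 3 motif kinds (2.94%, against 1.28% of tested protein-coding genes).

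Over all windows, 12 of the 68 genes held the YY1 motif (17.6%), against 5.25% of 9832 tested protein-coding genes and 3.19% of all 27025 genes with a window. In 8 of these 12 it began after the transcript start, as it did in 55.8% of the tested protein-coding genes with the motif. Mrps7, which binds near the exit site for tRNA, Mrps24, Mrpl35 and Mrpl42 were among the 8. The ETS motif was found in 11 (16.2%, against 8.98% of tested protein-coding genes), and the NRF1 motif in 7 (10.3%, against 4.30%). The TGCGCA core was found in 21 (30.9%, against 15.8%). At least 1 of the 3 motifs was present in 28 of the 68 genes (41.2%, against 17.2% of tested protein-coding genes and 9.03% of all). These are letter matches and not measured binding, and the shares were not tested against each other. The difference between KO and WT was small with and without each motif. Its median log2 fold change was -0.11 for the 11 genes with the ETS motif and -0.05 for the tested genes without it, 0.0042 with the YY1 motif and -0.05 without it, and -0.09 with the NRF1 motif and -0.05 without it.

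Members also sat close to a neighbour read from the opposite strand. Among the 77 genes, 33 had a start within 1000 bases of the start of a protein-coding gene on the opposite strand (42.9%), against 15.8% of the 12451 tested protein-coding genes and 10.8% of all protein-coding genes. Several neighbours also serve mitochondria. Mrps12, a protein of the decoding centre, lay beside Sars2, the mitochondrial seryl-tRNA synthetase, with 172 bases between the starts. Mrpl43 lay beside Twnk, the mitochondrial DNA helicase. Mrpl36 and Mrpl47 each lay beside a complex I gene, Ndufs6 and Ndufb5. Mrps11 and Mrpl46 formed a pair of members, and Mrpl49 lay 59 bases from Fau, which encodes a fusion of a ubiquitin-like protein with a cytosolic ribosomal protein. Levels within a pair could be far apart: Mrpl36 averaged 40.9 CPM and Ndufs6 510.9 CPM over the 8 hearts, a comparison that is not scaled to length. No tested partner passed the threshold between KO and WT, with a smallest adjusted p of 0.772 in edgeR.

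The 77 genes were spread over 17 chromosomes, with 0 on X or Y. They were short, with a median merged exon length of 2394 bases against 4403 for all tested genes, while GC content was alike (median 50.01% and 50.27%). Exons of 30 members overlapped another gene of the table, 27 of them a gene on the opposite strand. The strand setting of the counting is not given, so reads over such overlaps may be missing from a gene or credited to the wrong one. The median log2 fold change of KO against WT was -0.06 over the 29 tested members with an overlap and -0.05 over the 47 without.

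Mrpl53, a large-subunit protein without a bacterial counterpart, was the 1 member not tested. It lies on chromosome 6 from 83109040 to 83109939 (GRCm38, plus strand; gene ENSMUSG00000030037). The 4 WT hearts gave 0, 3, 0 and 2 counts, and each KO heart gave 0. Its longest coding transcript lies wholly inside the exons of Gm42688, a gene model on the same strand that overlaps 695 of its 790 exon bases and held between 43 and 100 counts in each heart. The 2 genes cannot be told apart in these counts, and the low value of Mrpl53 is no measure of its expression. Of the other members, Mrpl23 was the one with more than 50% of its transcript shared with another gene on the same strand: 66.7% of its 50-base stretches also occur in the pseudogene Mrpl23-ps1. With both strands counted, Mrps25 (73.9%, mostly Nr2c2), Mrps18b (63.7%, Gm16279) and Mrps34 (52.4%, Mapk8ip3) also passed 50%. The levels of these 4 genes are uncertain.

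Levels of different members were compared per length, in CPM per kilobase of merged exons, averaged over the 8 hearts. The median member stood at 20.95, against 3.87 for all tested genes with an annotated length. By the same measure the median was 96.2 for 80 cytosolic ribosomal protein genes and 444.1 for 46 nuclear genes of respiratory complexes I and IV. The mRNAs of the mitochondrial ribosome were thus less abundant per length than those of the enzymes its products join. They were more abundant than the genes of mitoribosome assembly (median 5.98, 29 genes) and of mitochondrial tRNA charging (6.23, 22 genes). None of these differences between lists was tested.

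Between members the level ranged over 48.5-fold. Mrpl12, the stalk protein of the large subunit that takes part in recruiting translation factors, was highest at 138.4 CPM per kilobase. It was followed by Mrps21, a small-subunit protein with a bacterial counterpart, at 124.4, then by the large-subunit proteins Mrpl34 at 119.1 and Mrpl14, which lies at the interface of the subunits, at 100.9. At the low end were Mrps10 (2.85), Mrps22 (3.23), Mrpl23 (3.49), a protein near the exit of the peptide tunnel, and Mrpl48 (3.82). Spread between hearts was small beside this range: Mrpl12 was at 148.3 ± 16.9 in WT and 128.5 ± 11.7 in KO, and Mrps10 at 2.86 ± 0.46 and 2.84 ± 0.09 (SD, n = 4 each). In the order of levels, Mrpl12, Mrps21 and Mrpl34 did not differ beyond their SD from their neighbours in WT, at 148.3 ± 16.9, 134.4 ± 19.9 and 121.3 ± 17.4. The median was 22.5 for the 49 large-subunit genes and 14.9 for the 26 small-subunit genes. Mitochondrion-specific small-subunit genes had the lowest median of the 4 classes, 11.3 (10 genes), against 22.6 for small-subunit genes with a bacterial counterpart (16 genes).

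**Figure D1:**
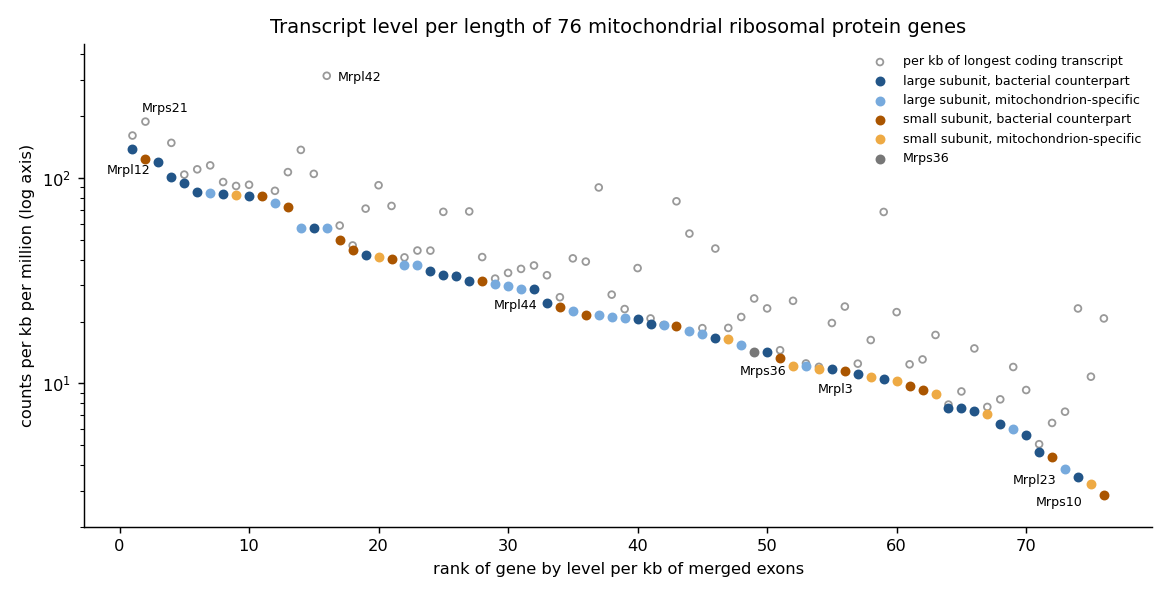
Level of each of the 76 tested genes in CPM per kilobase (log axis, mean of 8 hearts), ordered by rank per kilobase of merged exons (filled circles, coloured by subunit and origin) with the value per kilobase of the longest protein-coding transcript as open circles. Levels run from 2.85 for Mrps10 to 138.4 for Mrpl12 by merged exons, and the open circles show that Mrpl42 moves to 315.1.

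The order depended on which length was used. Per kilobase of the longest protein-coding transcript the median was 34.1, and Mrpl42, a mitochondrion-specific large-subunit protein ranked 16 by merged exons, came first at 315.1. Of the 10 highest members, 6 were shared by both lengths, and of the 10 lowest, 8. Mrpl13 moved up by 35 places, Mrpl23 by 26 and Mrps10, the lowest by merged exons, by 24 to 20.7. The lowest was then Mrpl19, a large-subunit protein, at 5.05. Other members moved up too, among them Mrps9 by 24 places and Mrps18a by 21. The gene models of Mrpl13, Mrpl23 and Mrps10 carry long exons outside the longest coding transcript.

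Across the 8 hearts the members varied little. The largest difference between any 2 hearts was under 2-fold for all 76 tested genes, with a median of 1.39-fold. It was smallest for Mrpl20, an early-binding protein of the large subunit in bacteria, at 1.17-fold. Mrpl20 stood at 48.8, 55.8, 53.2 and 56.4 CPM in WT and at 54.1, 48.1, 52.6 and 51.1 CPM in KO. It was largest for Mrpl44, at 1.97-fold. Mrpl44 (chromosome 1, 79776018 to 79781445, plus strand) is a large-subunit protein with a ribonuclease III-like fold. Its levels were 32.0, 54.2, 49.3 and 63.1 CPM in WT and 50.5, 48.3, 45.6 and 50.3 CPM in KO. The 4 KO hearts lay close together, and WT replicates 1 and 4 lay on either side of them. The median within-group SD was 0.16 on the log2 scale for the members and 0.22 for all tested genes. It was also 0.16 for cytosolic ribosomal protein genes and for genes of mitochondrial tRNA charging. The lists differ in level, which was not taken into account.

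Many members deviated the same way in a given heart. The median deviation of the 76 genes from their own mean was -0.17 (log2) in WT replicate 1, 0.16 in WT replicate 2, -0.01 in WT replicate 3 and 0.13 in WT replicate 4. In KO it was 0.07, -0.08, -0.07 and 0.01. WT replicate 1 was the lowest heart for 36 of the 76 genes, and WT replicate 2 the highest for 34. The highest and the lowest hearts for the members were thus both WT, and the KO hearts lay between them. Of all 13336 tested genes, 1836 were lowest in WT replicate 1. WT replicate 2 was the highest heart for 2641 of them and the lowest for 2542, so it stood out in both directions. Summed over the members, the WT hearts held 4302, 5382, 4782 and 5260 CPM and the KO hearts 5133, 4484, 4572 and 4873 CPM, a range of 1.25-fold. The WT mean was 4932 ± 493 CPM (SD, n = 4) and the KO mean 4766 ± 296 CPM (SD, n = 4).

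**Figure D2:**
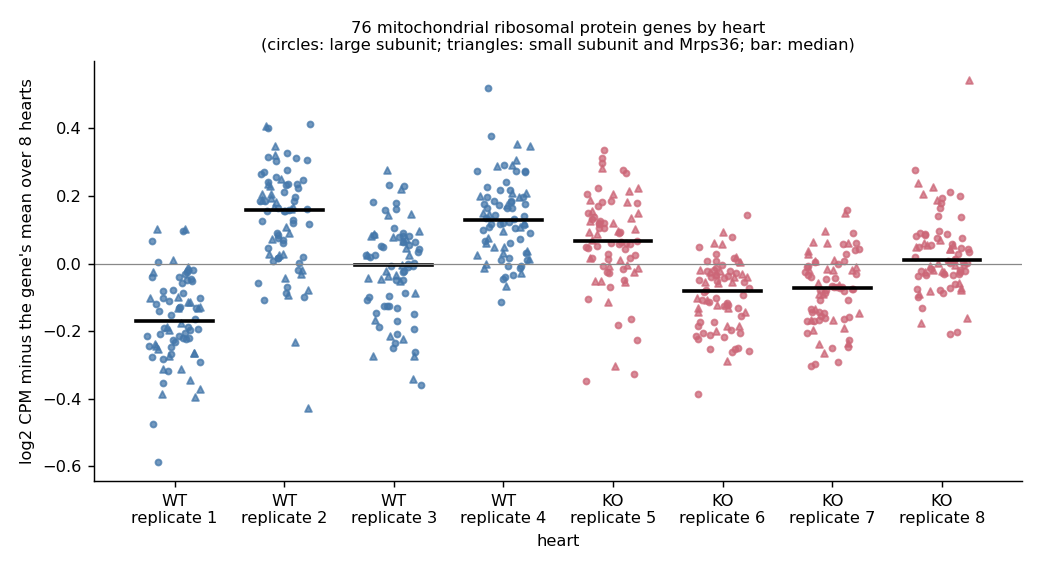
Each point is 1 of the 76 tested genes in 1 heart, as log2 CPM minus that gene's mean over the 8 hearts, with circles for the large subunit, triangles for the small subunit and Mrps36, and a bar at the median. WT replicate 1 lies lowest (median -0.17) and WT replicates 2 and 4 highest (0.16 and 0.13), with the KO hearts between -0.08 and 0.07.

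Both subunits moved together between hearts. The ratio of summed large-subunit to summed small-subunit CPM ran 2.32, 2.34, 2.25 and 2.33 over the WT hearts and 2.30, 2.27, 2.28 and 2.33 over the KO hearts, or 2.31 ± 0.04 against 2.30 ± 0.03 (SD, n = 4 each). The groups overlapped.

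Nuclear complex I and IV genes ordered the hearts as the members did, except that WT replicate 4 and KO replicate 5 changed places. They were low in WT replicate 1 (median deviation -0.25, the lowest heart for 36 of 46) and high in WT replicate 2 (0.23). The order differed for other lists. Cytosolic ribosomal protein genes were highest in WT replicate 2 for 57 of 80 genes, with a median of 0.27 there and -0.07 in WT replicate 1. The mitochondrially encoded mRNAs stood the other way round in these 2 hearts, at 0.35 in WT replicate 1 and -0.22 in WT replicate 2. In WT replicate 3 they stood at -0.43, where the members were at their mean. Whether the share of mitochondrial mRNA in a library sets the level of the members there was not tested.

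**Figure D3:**
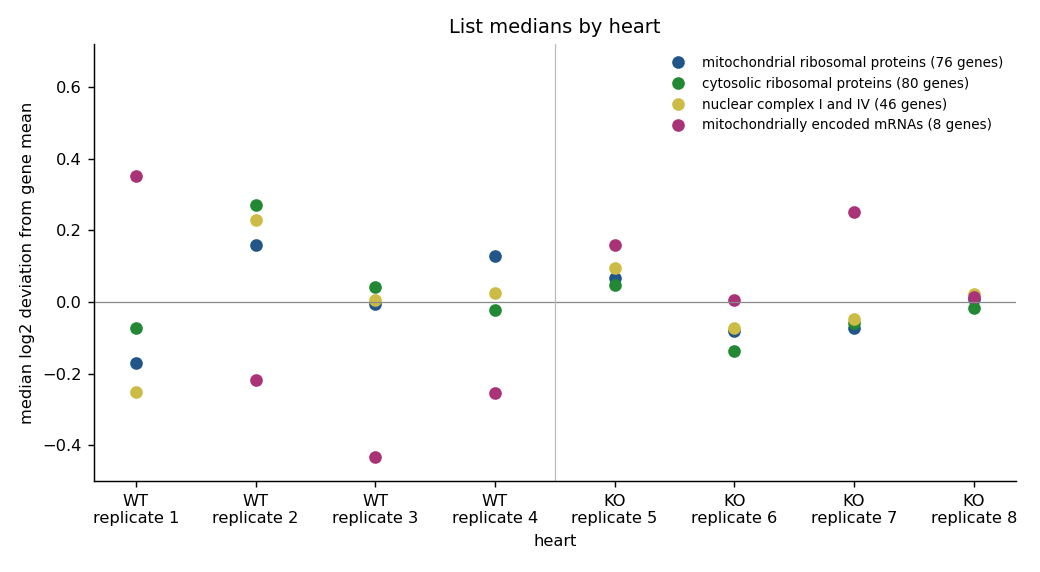
Median log2 deviation from the gene mean in each heart for 4 lists of genes, with WT on the left and KO on the right of the vertical line. Mitochondrial ribosomal protein genes range from -0.17 to 0.16, and mitochondrially encoded mRNAs from -0.43 in WT replicate 3 to 0.35 in WT replicate 1.

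The comparison of KO with WT asks whether loss of Nbdy alters the mRNAs of the mitochondrial ribosome. No member passed the threshold: 0 of 76 were called at an adjusted p under 0.05 (edgeR, adjusted over all 13336 genes), against 0.0225% of all tested genes. By direction, 0.015% of all tested genes were higher in KO (Mid1 and Rpl39-ps) and 0.0075% lower (Nbdy). The smallest adjusted p of a member was 0.777. At an unadjusted p under 0.05 there was 1 member (1.32%), against 6.4% of all tested genes. This count was not stable, at 7 (9.21%) without WT replicate 1 and 6 (7.89%) with scaling by library totals. The share of all genes under the alternatives was not computed. DESeq2 and limma-voom also called 0 members, with 0 and 2 at an unadjusted p under 0.05. In 0 of the 76 did the 2 groups of hearts lie fully apart, against 4.12% of all tested genes.

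The differences were also bounded by the data. In the main fit, all 76 intervals at 95% lay within 1.5-fold in either direction. The extreme bounds were -0.57 and 0.57 on the log2 scale. Intervals were not computed for the alternatives, in which estimates of single genes moved outward or inward. The fitted log2 fold changes ran from -0.28 for Mrpl13 to 0.22 for Mrps36. The median was -0.05, against -0.0032 for all tested genes. More members had a negative value than a positive one, 56 against 20 (73.7% negative, against 50.6% of all tested genes). That count moved with single hearts of both groups. It was 62 without WT replicate 1, 42 without WT replicate 2 and 43 without WT replicate 4, and 46 without KO replicate 6 and 49 without KO replicate 7. The median was between -0.10 (without WT replicate 1) and -0.0029 (without WT replicate 2). The medians of all tested genes in these 2 fits were -0.0011 and 0.0019. Cells of a type being fewer and a cell holding less of an mRNA cannot be told apart in whole-ventricle RNA.

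**Figure D4:**
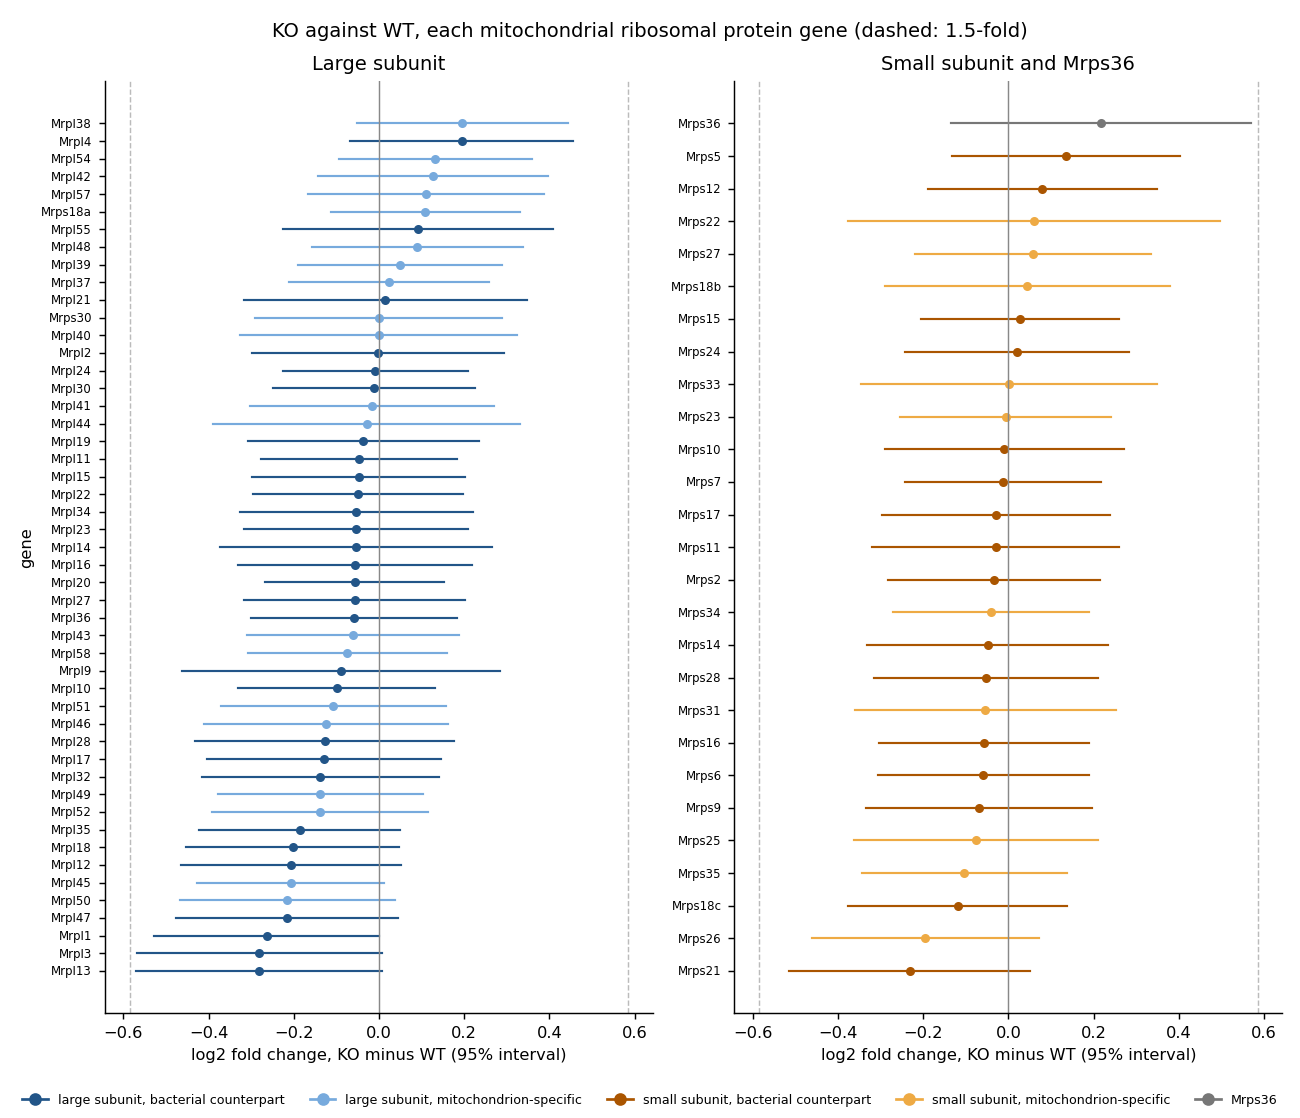
Log2 fold change of KO against WT with its 95% interval for each of the 76 tested genes, for the large subunit on the left and the small subunit and Mrps36 on the right. All intervals lie inside the dashed lines at 1.5-fold, and values run from -0.28 (Mrpl13) to 0.22 (Mrps36).

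In the large subunit, 38 of 49 genes had a negative value, with a median of -0.05. Among those with a bacterial counterpart the count was 26 of 29 (median -0.06), and among the mitochondrion-specific ones 12 of 20 (median -0.01). The class difference was not tested. The 3 members with the smallest unadjusted p have a bacterial counterpart.

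Mrpl1 forms the mobile L1 stalk near the site where spent tRNA leaves the ribosome (ENSMUSG00000029486, chromosome 5, 96209493 to 96266727, plus strand). It stood at 31.3, 38.8, 36.6 and 34.9 CPM in WT and at 25.2, 27.7, 32.2 and 33.0 CPM in KO. KO replicates 5 and 6 were below every WT heart, and KO replicates 7 and 8 were within the WT range. KO differed from WT by -0.26 ± 0.12 (SE) on the log2 scale, with an unadjusted p of 0.049 and an adjusted p of 0.777 in edgeR.

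Mrpl3 is a protein near the peptidyl transferase centre (ENSMUSG00000032563, chromosome 9, 105053239 to 105079888, plus strand), and its promoter with an ETS motif is printed above. Its levels were 74.8, 102.1, 82.2 and 83.7 CPM in WT and 61.4, 85.3, 65.0 and 70.4 CPM in KO. KO replicate 6 lay above 3 of the WT hearts, so the groups overlapped. The difference was -0.28 ± 0.13 (SE) on the log2 scale, with an adjusted p of 0.777.

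Mrpl13 (ENSMUSG00000022370, chromosome 15, 55534094 to 55557748, minus strand) had 79.8, 110.2, 77.03 and 99.9 CPM in WT and 81.0, 68.8, 69.4 and 82.7 CPM in KO, a difference of -0.28 ± 0.13. WT replicates 2 and 4 were above all KO hearts and WT replicates 1 and 3 were within the KO range. Without WT replicate 2, Mrpl3 was at -0.19 and Mrpl13 at -0.18. The exons of Mrpl13 overlap Mtbp on the opposite strand, which had a value of -0.33 ± 0.21 at 3.78 CPM.

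The remaining members of the 6 with smallest p on the negative side were also large-subunit genes. Mrpl45, which anchors the ribosome to the inner membrane near the tunnel exit, had a log2 fold change of -0.21 ± 0.10. Mrpl50, a mitochondrion-specific protein, had -0.22 ± 0.12 (-0.14 without WT replicate 2), and Mrpl47, which lies at the tunnel exit, also had -0.22 ± 0.12. Their adjusted p lay between 0.777 and 0.784 in edgeR. With trends in GC content and length taken out, Mrpl50 was at -0.07 and Mrpl47 at -0.15. Mrpl12, the most abundant member per length, stood at 193.7, 249.9, 220.1 and 245.2 CPM in WT and at 219.8, 177.2, 190.5 and 199.9 CPM in KO. WT replicate 1 was below KO replicates 5 and 8, and the difference was -0.21 ± 0.12 (adjusted p = 0.787).

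On the positive side, Mrpl38, a mitochondrion-specific protein of the central protuberance, had 48.0, 54.7, 48.4 and 62.6 CPM in WT and 64.1, 54.9, 60.6 and 65.2 CPM in KO (0.20 ± 0.11, adjusted p = 0.791). WT replicate 4 was the 1 WT heart inside the KO range. Mrpl4, which lines the peptide tunnel, had 0.19 ± 0.12, and Mrpl54, a mitochondrion-specific protein, had 0.13 ± 0.10. With trends in GC content and length taken out, Mrpl38 was at 0.10, Mrpl4 at 0.097 and Mrpl54 at 0.04. Values close to 0 were found for Mrpl11 of the translation factor binding site (-0.05 ± 0.11) and for Mrpl58, a peptidyl-tRNA hydrolase built into the large subunit (-0.07 ± 0.11, and -0.0071 without WT replicate 2). Mrpl44, linked to cardiomyopathy, had -0.03 ± 0.17 with an interval from -0.39 to 0.33.

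In the small subunit, 18 of 26 genes had a negative value, with a median of -0.03. Mrps21 (ENSMUSG00000054312, chromosome 3, 95862634 to 95871519, minus strand) had the smallest p. It stood at 90.4, 120.8, 96.8 and 89.2 CPM in WT and at 96.7, 74.4, 77.2 and 89.9 CPM in KO, and the groups overlapped (-0.23 ± 0.13, adjusted p = 0.784; -0.12 without WT replicate 2). Mrps5, a protein at the mRNA entry side whose bacterial counterpart affects decoding accuracy, had 23.7, 28.2, 29.1 and 28.6 CPM in WT and 32.6, 29.7, 24.9 and 33.0 CPM in KO (0.14 ± 0.12). WT replicate 1 was below the other 3 WT hearts. Mrps12 of the decoding centre had 0.08 ± 0.12.

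Mrps22, a mitochondrion-specific protein, was the tested member with the widest interval. Its levels were 11.5, 12.3, 10.4 and 16.3 CPM in WT and 10.1, 11.5, 12.5 and 18.6 CPM in KO. WT replicate 4 and KO replicate 8 stood above the rest of their groups, and the difference was 0.06 ± 0.20 (SE, log2) with an interval from -0.38 to 0.497.

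Some members carry a name that does not match their place. Mrps18a and Mrps30 are named for the small subunit but belong to the large one, and had log2 fold changes of 0.11 ± 0.10 and -3.4e-04 ± 0.13. Of the related proteins Mrps18b and Mrps18c, which do belong to the small subunit, the former had 0.04 ± 0.15 and the latter -0.12 ± 0.12. By level per length the 3 Mrps18 genes differed: Mrps18c stood at 31.4, Mrps18a at 21.6 and Mrps18b at 8.89 CPM per kilobase of merged exons. Per kilobase of the longest coding transcript Mrps18a was the highest of the 3 (89.99), before Mrps18c (41.2) and Mrps18b (17.2). Mrps36 is now known as a subunit of the 2-oxoglutarate dehydrogenase complex rather than of the ribosome. It had 15.7, 13.2, 15.4 and 22.9 CPM in WT and 20.9, 18.0, 18.4 and 21.001 CPM in KO. WT replicate 4 was the highest of the 8 hearts and the other 3 WT hearts were below all KO hearts (0.22 ± 0.16, adjusted p = 0.818; 0.40 without WT replicate 4, 0.12 without WT replicate 2 and 0.03 without both WT replicates 1 and 2). Parts of its transcript (36.2% of 50-base stretches) recur in pseudogenes.

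**Figure D5:**
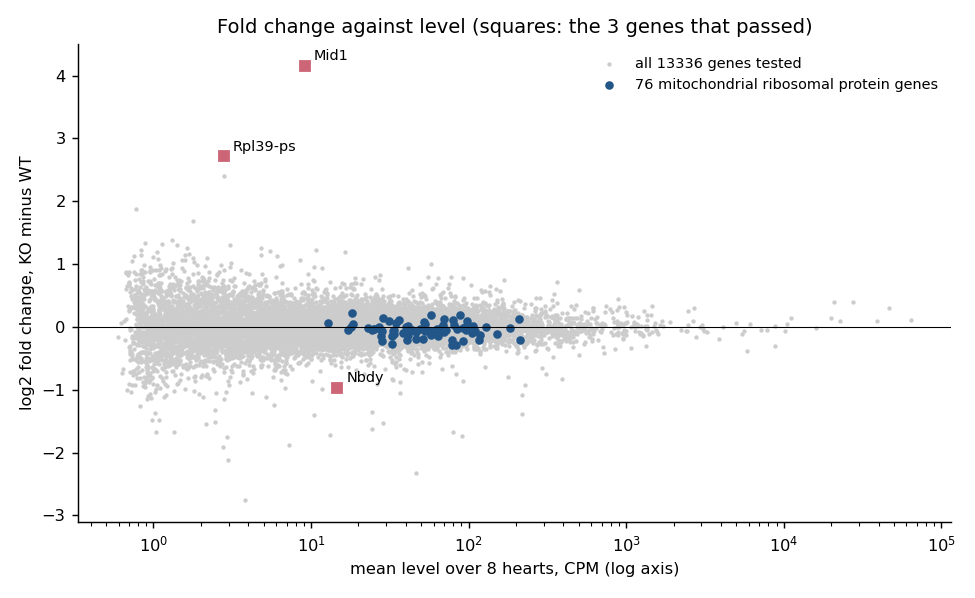
Log2 fold change of KO against WT plotted against mean level in CPM (log axis, 8 hearts) for all 13336 tested genes (grey), with the 76 mitochondrial ribosomal protein genes in blue and the 3 genes that passed as squares. The members lie within -0.28 and 0.22 and none of them lies near the 3 squares.

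Genes that work with the mitochondrial ribosome were examined by lists of their function. None of their tested genes passed. Of the 5 ribosomal proteins that go by other names, 4 had a negative value (median -0.09). Dap3, a GTP-binding protein of the small subunit, had -0.11 ± 0.12. Ptcd3, a pentatricopeptide protein, had -0.14 ± 0.12, and Chchd1 had -0.09 ± 0.14. Without WT replicate 2, Dap3 was at -0.02 and Chchd1 at -0.0033. Aurkaip1 had 0.07 ± 0.12 and Gadd45gip1, a large-subunit protein at the tunnel exit, -0.08 ± 0.20.

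Among 29 genes of ribosome assembly and rRNA modification, 14 were negative (median 0.0081). The smallest p belonged to Ybey, an endoribonuclease (0.39 ± 0.20), and Gtpbp10, a GTPase of large-subunit assembly (-0.30 ± 0.16). Among 20 tested of 21 genes of mitochondrial translation, 16 were negative (median -0.08). Beside initiation, elongation and release factors this list holds proteins that act around translation, such as Lrpprc and Slirp (mRNA stability), Oxa1l (membrane insertion) and Coa3 and Cox14 (complex IV assembly). Guf1, a GTPase that acts on the elongating ribosome, stood at 40.1, 40.8, 40.5 and 36.8 CPM in WT and at 33.5, 35.8, 31.0 and 35.3 CPM in KO, and the groups did not overlap. Its difference was -0.22 ± 0.10 with an adjusted p of 0.772. The release factor gene Mtrf1 had -0.32 ± 0.15, with an adjusted p of 0.777, and its groups did not overlap either. These were the 2 such genes of the 20, against 4.12% of all tested genes, and both were named for their small p.

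Of 22 genes that charge mitochondrial tRNAs, 11 were negative (median -0.0024). Most are tRNA synthetases, and Qrsl1, Gatb and Gatc encode the amidotransferase that completes glutaminyl-tRNA. Lars2, the leucyl-tRNA synthetase, stood at 33.9, 83.4, 39.1 and 33.9 CPM in WT and at 29.7, 28.9, 21.7 and 23.5 CPM in KO. All KO hearts were below all WT hearts, and WT replicate 2 was more than 2-fold above the other WT hearts. Its log2 fold change was -0.87 ± 0.26 (adjusted p = 0.711), and -0.46 without WT replicate 2. Wars2, the tryptophanyl-tRNA synthetase, had -0.45 ± 0.17 (adjusted p = 0.734). Lars2 and Wars2, named for their small p, were the 2 of the 22 genes without overlap of the groups, against 4.12% of all tested genes.

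Genes of mitochondrial transcription and RNA processing were negative in 15 of 23 (median -0.02). Tfam, which packages mitochondrial DNA and starts its transcription, had -0.25 ± 0.12 and Fastkd1 0.22 ± 0.11, both with an adjusted p of 0.777. Of 13 regulators of nuclear genes for mitochondria, 8 were negative (median -0.08), with Esrrb at -0.29 ± 0.15 and Esrra at 0.31 ± 0.18.

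The mitochondrial rRNAs, around which the proteins assemble, had values of -0.38 ± 0.20 (mt-Rnr1) and -0.30 ± 0.22 (mt-Rnr2), or -0.16 and -0.09 without WT replicate 2. Poly(A) selection makes these a poor measure of rRNA. The mRNAs that the ribosome translates went the other way: all 8 tested of 13 had a positive value (median 0.26), among them mt-Nd4 at 0.40 ± 0.21 and mt-Cytb at 0.30 ± 0.17. None passed (smallest adjusted p of 0.777 in edgeR), and WT replicate 1 exceeded the KO mean for both genes. Without WT replicate 1 mt-Nd4 was at 0.66 and mt-Cytb at 0.46. For mt-Nd6, which had the largest value (0.74 ± 0.44), KO replicate 5 stood at 498.8 CPM and the other KO hearts at 97.0 to 120.7, against 103.2 to 169.3 in WT. For mt-Co2 the libraries held 1 to 29 counts. The other 5 had too few counts in the table to be tested. The nuclear partners of those products in complexes I and IV were negative in 28 of 46 (median -0.02), with Ndufa12 at 0.42 ± 0.14 and Cox6a2 at 0.29 ± 0.12. Cytosolic ribosomal protein genes were negative in 63 of 80 (median -0.09). Blood markers had a median of 0.31 over 5 genes (smallest adjusted p of 0.734 in edgeR). Fibroblast markers had -0.22 over 6 genes (smallest adjusted p of 0.772). The median was -0.0049 for 8 cardiomyocyte, -0.08 for 5 endothelial, -0.06 for 5 smooth muscle and pericyte, and 0.02 for 5 macrophage markers. It was 0.29 for 2 tested atrial and -0.23 for 2 tested skeletal muscle markers. No marker passed, and the part of these cell types in the values of the members was not tested.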

How the data were processed

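TRIzol RNA of 8 left ventricles was made into stranded poly(A) libraries (TruSeq), per the labels' protocols. The submitters' processing notes name STAR 2.7.1a and the GRCm38 (mm10) build. The authors deposited raw whole-number counts per Ensembl gene. For the counting, the tool, strand setting and annotation were not given in the sources used here. GENCODE M21 gave symbols for 36429 identifiers.

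Genes passing filterByExpr (minimum count 10) were scaled by TMM and compared in edgeR 4.0.16 (glmQLFit and glmQLFTest, two-sided, genotype as the only term, R 4.3.3), with Benjamini-Hochberg adjustment over all 13336 genes and a threshold of 0.05. SE is the log2 fold change divided by the root of F, and intervals cover 95%. Log2 deviations used CPM plus 0.5. Each library is 1 heart, so the tests set the group difference against variation between mice, estimated by edgeR with information from all genes.

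Named members were those passing, the 6 of smallest p in each direction, the 4 highest and 4 lowest per length, listed functional members and the untested one. Other lists gave their 2 genes of smallest p. Further genes, named for a neighbour, promoter or spread, and the motif letters were chosen after values were seen. Members and lists were chosen with earlier results of these data known. Alternatives included DESeq2 1.42.0 and limma-voom (limma 3.58.1).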

Additional observations from a re-analysis of the deposited data

Results flagged for a closer look

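The 53 quantities examined were the levels of named genes, the summed levels of the members and of each subunit, and the large-to-small ratio. Of their 106 groups of 4 hearts, 6 held an outlying heart. Its gap to the nearest other heart, divided by the group's range, exceeded Dixon's critical value at 95%. Chance alone would give 5.3 such groups at 1 in 20. In WT replicate 1, Mrps5 stood at 23.7 CPM against 28.2 to 29.1 in the other WT hearts. In KO replicate 7, Mrpl47 stood at 22.5 CPM against 26.9 to 27.3 in the other KO hearts. KO replicate 5 was high for 2 small-subunit genes with other names, Chchd1 (79.5 CPM against 56.4 to 59.8) and Aurkaip1 (114.6 CPM against 93.7 to 95.7). In KO replicate 8, Gtpbp10 stood at 8.31 CPM against 6.72 to 6.81. Lars2 stood at 83.4 CPM in WT replicate 2 against 33.9 to 39.1 in the other WT hearts.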

How the results depend on the processing

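No member passed under any alternative run, and the smallest adjusted p of a member in any of them was 0.341, without WT replicate 1 (edgeR). The median log2 fold change of the members was negative in all of them, from -0.10 to -0.0029. In some it lay close to the median of all tested genes. Without WT replicate 2 it was -0.0029 against 0.0019, and without WT replicate 4 it was -0.013 against -0.0079. Without WT replicate 1 it was -0.10 against -0.0011. Scaling by library totals shifted the median of all genes to -0.05 and that of the members to -0.10, with 63 negative. With trends in GC content and length taken out, an alternative chosen after the data were seen, 48 were negative. The median was then -0.027, against -0.014 for all genes. Without both WT replicates 1 and 2, also chosen afterwards, 58 were negative (median -0.07, against 0.0037 for all genes). Leaving out 1 heart at a time gave 42 to 62 negative members and 0 (without WT replicate 2) to 7 (without WT replicate 1) at an unadjusted p under 0.05. Over all genes, calls numbered 11 with DESeq2, 10 without a filter, 6 without WT replicates 1 and 2, and 2 to 6 with 1 heart left out. The median level per length was 34.1 with the longest transcript.

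Values near 0 changed sign. Leaving out 1 heart gave these ranges of log2 fold change: Mrps30 -0.083 to 0.071, Mrps10 -0.12 to 0.063, Mrps18b -0.040 to 0.16, Mrps22 -0.15 to 0.21, Mrps12 -0.024 to 0.15, Mrpl44 -0.19 to 0.10, Mrpl14 -0.19 to 0.048, Mrpl34 -0.14 to 0.041, Gadd45gip1 -0.26 to 0.028 and Aurkaip1 -0.0027 to 0.13. With library totals Mrps18b was at -8.7e-05. With limma-voom Mrps10 was at 0.0059, Mrpl44 at 0.013 and Mrps30 at 0.0044, and without a filter Mrps30 was at 0.0028. With the GC and length trend removed Mrps18c was at 0.016 and Mrps30 at 0.048. Without WT replicates 1 and 2, Mrps10 was at 0.15, Mrps22 at -0.023, Mrps18b at -9.1e-04 and Mrps30 at 0.025. For these sign changes the cause was not tested. No paired analysis was run because the labels give no pairing of WT with KO hearts. The running numbers, 1 to 4 for WT and 5 to 8 for KO, do not show whether hearts were paired.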
